A study of Mus musculus with 15 samples.

Results

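The 8 genes described here encode the MHC class II antigen presentation machinery of mouse spleen cells, and they were chosen by name from a panel of 561 immune genes of which 547 are endogenous and 14 are reference genes. They are *H2-Aa*, *H2-Ab1*, *H2-Eb1*, *H2-Ea-ps*, *Cd74*, *H2-DMa*, *H2-Ob* and *Ciita*. Spleen mRNA of 15 samples was counted with the nCounter Mouse Immunology Panel, in which a pair of probes captures each mRNA and colour-coded barcodes are counted without amplification. The mice were female C57BL/6J animals aged 6 to 8 weeks, and red blood cells were lysed before RNA isolation. The samples fell into 5 groups of 3. Sham mice were neither burned nor irradiated, WBIR mice received 9 Gy of whole-body radiation, and RCI (radiation combined with burn injury) mice received a burn of 20% of the body surface followed by 9 Gy. WBIR+MSC-EVs and RCI+MSC-EVs mice had the same injuries and were given extracellular vesicles of mesenchymal stem cells (MSC-EVs) intravenously 72 hours after injury. Spleens were taken 48 hours after that. The labels name PBS for untreated RCI mice and no vehicle for WBIR mice, while the study's text gives saline for all mice without MSC-EVs, Sham included. By the methods, burned mice also received tribromoethanol anaesthesia, injected morphine, Ringer's solution and morphine in their water. The sham procedure was the same apart from the injuries, and the MSC-EVs came from a commercial C57BL/6J bone marrow culture. The samples are described as run in triplicate and the labels do not say that they are separate mice, so p-values measure the spread between these samples, which may be technical.

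MHC class II molecules display peptides from ingested proteins on the surface of B cells, dendritic cells and macrophages, where CD4 T cells read them. Each is a pair of an alpha and a beta chain, which the invariant chain escorts to the endosome, where H2-DM exchanges the invariant chain remnant for peptide and H2-O restrains H2-DM. The transactivator CIITA does not bind DNA itself and is recruited to class II promoters by factors on the X box and on the Y box, an inverted CCAAT motif.

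By RefSeq's mouse annotation (GRCm38.p6), *H2-DMa*, *H2-Ob*, *H2-Ab1*, *H2-Aa*, *H2-Eb1* and the gene listed on the panel as *H2-Ea-ps* lie in this order on chromosome 17, while *Cd74* and *Ciita* lie elsewhere. *H2-Ea-ps*, the alpha chain of I-E, is annotated as a transcribed pseudogene. RefSeq promoter windows, from 250 bases before to 50 bases after a start site, were given for 4 of the 8 genes, with 5 windows in all. In *H2-Ob*, *H2-Aa* and *H2-Eb1* the letters GCAAC, which belong to the X box, were followed on the same strand by TGATTGG, the core of the Y box. These 3 stretches are shown because they are the promoter feature that members of the class II group share. Each is written 5′ to 3′ on the strand of its gene, with both motifs in capitals. They lie at chr17:34238798-34238872 on the plus strand for *H2-Ob*, chr17:34287847-34287924 on the minus strand for *H2-Aa* and chr17:34305756-34305832 on the plus strand for *H2-Eb1*.
H2-Ob: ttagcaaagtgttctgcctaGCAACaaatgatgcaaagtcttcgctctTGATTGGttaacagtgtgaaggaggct
H2-Aa: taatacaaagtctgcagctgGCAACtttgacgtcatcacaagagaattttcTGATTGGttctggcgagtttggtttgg
H2-Eb1: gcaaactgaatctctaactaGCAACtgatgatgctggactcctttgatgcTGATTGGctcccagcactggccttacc

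The 2 motifs were separated by 23 bases in *H2-Ob*, 26 in *H2-Aa* and 25 in *H2-Eb1*, and GCAAC began 87, 81 and 91 bases before the start site. Both strands were searched and a spacing of 10 to 40 bases was allowed. The pair was held by 95 of 32851 promoter windows (0.289%), and among the 420 panel genes with a window these 3 alone held it. TGATTGG on its own was in 7.82% of windows, and neither window of *H2-DMa* held it. The shorter core and the pair were chosen after the sequences were seen. Of the motifs chosen earlier, the longer Y box core CTGATTGG, which contains TGATTGG, was in *H2-Aa* and *H2-Eb1* and in 4.1% of windows. The X box core AGNNACNGA was in *H2-Eb1*, and in *H2-Ob* on the opposite strand past the start site, and in 17.7% of windows. The gamma-activated site TTCNNNGAA was in none of the 5 windows and in 8.3% of all windows.

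Total counts ranged from 90127 to 598872 per sample. Values below are counts scaled to the geometric mean of the 14 reference genes, and levels are not compared between genes because probes differ in efficiency. A gene was tested if its mean was at least 20 counts, which 426 endogenous genes and 7 of the 8 class II genes met. The fit was edgeR's quasi-likelihood test over all 426 genes, and a gene was called at a Benjamini-Hochberg adjusted p under 0.05. Against Sham, the log2 fold change of the median gene was -0.74 in WBIR and -0.53 in RCI, and with MSC-EVs it was -0.61 and -0.45 respectively. TMM scaling, which sets the median gene near 0, shifted these medians by 0.71, 0.54, 0.56 and 0.37. The reference genes were not uniform, as 7 of the 14 differed over 2-fold from their own mean change in WBIR, and ratios between class II genes, given further on, do not rest on them. A bulk measurement cannot tell fewer cells of a type from less RNA per cell.

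Several libraries stood apart from their groups. In Sham replicate 2 the 7 tested class II genes lay 0.39 to 1.76 log2 units below the other Sham samples, with the B cell list at a median of -0.64 and the macrophage list at -1.01, while the median of all genes was 0.53 above. In RCI replicate 3 the class II genes were at a median of -1.45 relative to the other RCI samples, the B cell list at -0.91 and the macrophage list at -1.36. The library of lowest total was WBIR+MSC-EVs replicate 1, and its *H2-Ob* was 1.78 log2 units above the other samples of its group while the median over the class II genes was -0.39. Each comparison was also run with these 3 libraries left out, and values that changed a call are given with the result.

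The chains that bind peptide were lower in every irradiated sample than in every Sham sample. *H2-Aa*, the alpha chain of I-A, had 24640, 7874 and 21806 scaled counts in Sham. It had 2014, 2014 and 2273 in WBIR, 1752, 2816 and 2118 in WBIR+MSC-EVs and 3955, 1998 and 1048 in RCI, while RCI+MSC-EVs had 2832, 2746 and 2595. The highest irradiated value, in RCI replicate 1, was below the lowest Sham value, in replicate 2. All 3 RCI+MSC-EVs samples lay above all 3 WBIR samples, and the other pairs of irradiated groups overlapped. *H2-Aa* fell by 3.11 on the log2 scale in WBIR (SE 0.49, edgeR adjusted p 7.4e-05), with a log2 fold change of -3.02 ± 0.48 in WBIR+MSC-EVs and -2.96 ± 0.48 in RCI, while RCI+MSC-EVs was at -2.73 ± 0.48 (SE). *H2-Ab1*, the beta chain of I-A, had 11904, 6310 and 9080 scaled counts in Sham and from 846 to 3133 in the 12 irradiated samples, with a median of 1525. Its log2 fold change was -2.67 ± 0.41 in WBIR (edgeR adjusted p 5.8e-05), -2.59 ± 0.41 in WBIR+MSC-EVs and -2.30 ± 0.40 in RCI, while RCI+MSC-EVs was at -2.16 ± 0.40. The groups with radiation did not overlap Sham for this gene either. *H2-Eb1*, the beta chain of I-E, had 6289, 2842 and 4043 scaled counts in Sham and from 434 to 1587 in the irradiated samples. It fell by 2.83 in WBIR (SE 0.41, edgeR adjusted p 3.9e-05) and by 2.23 in RCI (SE 0.40, edgeR adjusted p 0.00022) on the log2 scale.

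RCI replicate 1 held the highest and RCI replicate 3 the lowest irradiated value of *H2-Aa*, *H2-Ab1* and *H2-Eb1*, so RCI had the widest spread of the irradiated groups. *H2-Aa* had an SD of 1482 scaled counts in RCI and of 120 in RCI+MSC-EVs (n = 3 each). Without RCI replicate 1 the log2 fold change in RCI was -3.57 for *H2-Aa*, -2.93 for *H2-Ab1* and -2.86 for *H2-Eb1*, each more than 1.5 times lower on the linear scale than with it. *H2-Ea-ps* had 1 to 13 raw counts over all 15 samples and was not tested. Mice of the C57BL/6 background carry a defect in this gene and make no I-E on the cell surface. Its scaled values were 0.91 to 10.96 in Sham and 0.93 to 12.9 in the irradiated samples, ranges that overlapped.

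*Cd74*, the invariant chain that fills the peptide groove until the endosome is reached, was lower in all 4 irradiated groups. It had 54286, 12946 and 33140 scaled counts in Sham. The irradiated samples lay between 2045, in RCI replicate 3, and 7085, in RCI replicate 1, with a median of 4925. All 12 were below the lowest Sham sample, which was replicate 2. The log2 fold change was -2.79 ± 0.51 in WBIR (edgeR adjusted p 0.00029), -2.73 ± 0.51 in WBIR+MSC-EVs and -2.998 ± 0.52 in RCI, while RCI+MSC-EVs was at -2.74 ± 0.51. Without RCI replicate 1 the value in RCI was -3.61.

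The genes of peptide editing moved unequally. *H2-DMa*, the alpha subunit of the editor H2-DM, had 1331, 840 and 1436 scaled counts in Sham, 572, 644 and 645 in WBIR and 951, 682 and 198 in RCI. With MSC-EVs it had 550, 807 and 628 in WBIR and 753, 779 and 554 in RCI. All groups but RCI lay below Sham without overlap, while RCI replicate 1 was above Sham replicate 2. The log2 fold change was -0.96 ± 0.41 in WBIR (edgeR adjusted p 0.0517), -0.86 ± 0.41 in WBIR+MSC-EVs (edgeR adjusted p 0.077) and -0.98 ± 0.41 in RCI (edgeR adjusted p 0.0459), while RCI+MSC-EVs was at -0.79 ± 0.41 (edgeR adjusted p 0.1). Only the RCI value passed, and 18 of 27 alternatives ended that call. Without RCI replicate 3 the value in RCI was -0.56 with an edgeR adjusted p of 0.0753. With the 3 libraries that stood apart left out, *H2-DMa* was called lower in all 4 comparisons, at -1.16 in WBIR (edgeR adjusted p 0.00023) and -0.76 in RCI (edgeR adjusted p 0.0082). These libraries were picked after the data were seen, in part by the class II genes themselves, so this refit is no independent support. It removed the lowest *H2-DMa* value of Sham (840) and of RCI (198), and it kept RCI replicate 1.

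*H2-Ob*, the beta subunit of the H2-DM inhibitor H2-O, had the largest fall of the tested class II genes in each comparison with Sham. It had 1277, 1006 and 1359 scaled counts in Sham. It had 29.7, 23.4 and 24.1 in WBIR, 90.5, 30.2 and 22.3 in WBIR+MSC-EVs and 43.3, 61.9 and 28.1 in RCI, while RCI+MSC-EVs had 45.2, 80.8 and 63.1. The irradiated values were far below the lowest Sham value. The RCI+MSC-EVs samples lay above the WBIR samples, and the other pairs of irradiated groups overlapped. They rest on 21 to 64 raw counts per sample, with no background subtracted, so the size of the fall is less certain than its direction. The log2 fold change was -4.85 ± 0.48 in WBIR+MSC-EVs (edgeR adjusted p 1.4e-06) and -4.79 ± 0.47 in RCI (edgeR adjusted p 1.3e-06), while RCI+MSC-EVs was at -4.27 ± 0.46 (edgeR adjusted p 3.4e-06). Its rank in WBIR was 2 from the lowest of the 426 genes. Without WBIR+MSC-EVs replicate 1 the value in that group was -5.53.

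*Ciita*, the transactivator of this gene group, had 1084, 697 and 930 scaled counts in Sham. It had 74.9, 64.5 and 61.1 in WBIR, 103, 67.8 and 64.6 in WBIR+MSC-EVs and 90.6, 47.4 and 37.1 in RCI, while RCI+MSC-EVs had 66.4, 96.0 and 66.6. No irradiated sample reached a Sham sample, and the irradiated groups overlapped. *Ciita* had a log2 fold change of -3.76 ± 0.35 in WBIR (edgeR adjusted p 6.5e-07) and -3.96 ± 0.35 in RCI (edgeR adjusted p 5.6e-07). The values with MSC-EVs were -3.56 ± 0.35 and -3.57 ± 0.34. The irradiated samples had 32 to 110 raw counts of *Ciita*, with no background subtracted, so the size of this fall is also less certain than its direction.

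**Figure D1:**
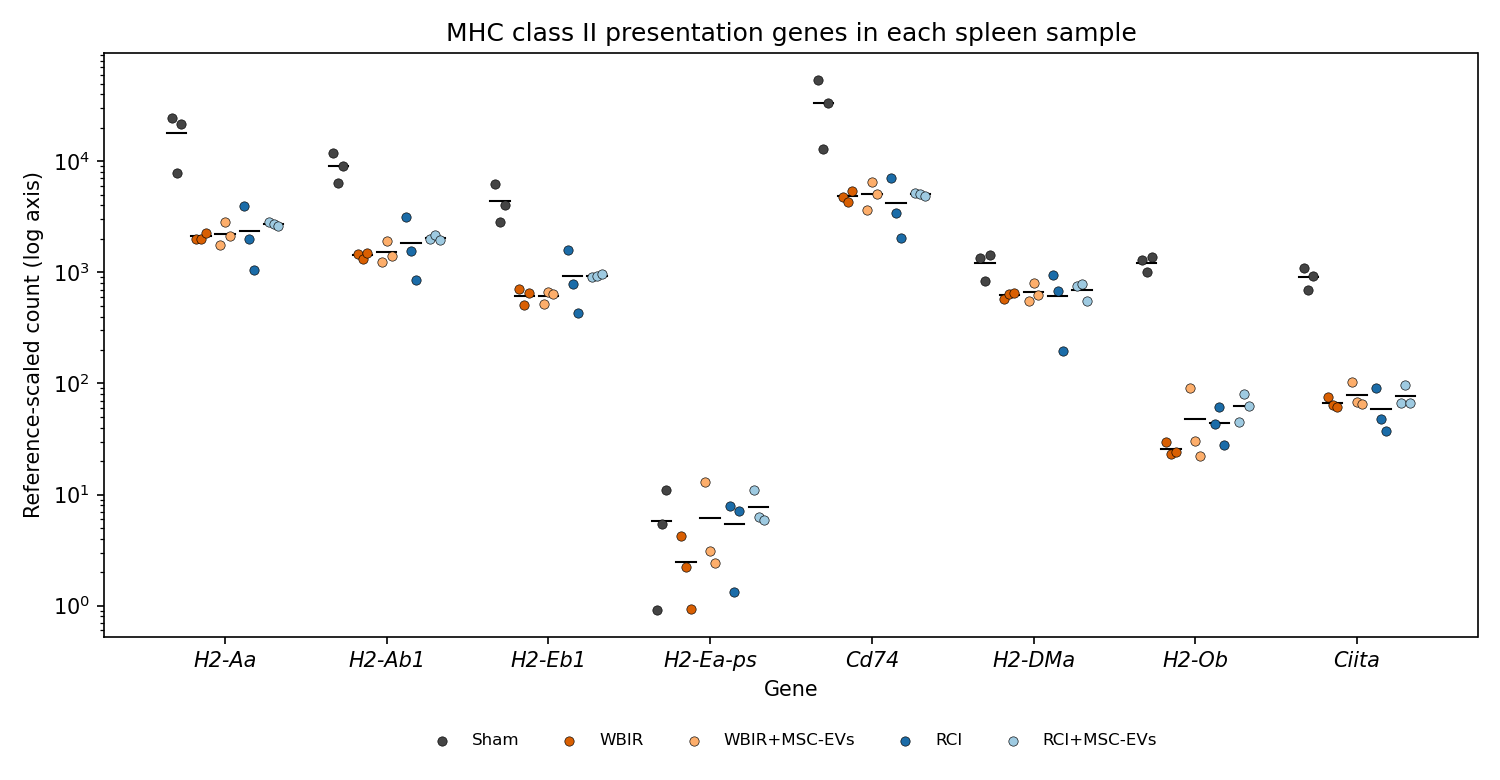
Reference-scaled counts of the 8 class II genes (log axis) in each of the 15 samples, coloured by group, with 3 points and a bar at the mean per group. For *H2-Ob* the Sham samples lie between 1006 and 1359 and the 12 irradiated samples between 22.3 and 90.5, while *H2-Ea-ps* stays at or below 12.9 in every sample.

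Counted over the 7 tested genes, 6 were called lower in WBIR, where 46.9% of all 426 genes were, and 7 were called lower in RCI, where 43.0% were. With MSC-EVs, 6 were called lower in WBIR, against 45.1% of all genes, and 6 in RCI, against 41.3%. None of the 7 was called higher (0 genes), and the 4 comparisons share the Sham samples. All samples of the irradiated group were below all Sham samples for 7 genes in WBIR (47.7% of all genes), 6 in RCI (41.8%) and, with MSC-EVs, 7 in WBIR (44.6%) and 7 in RCI (42.3%). The median log2 fold change of the 7 genes was -2.83 in WBIR and -2.96 in RCI, and -2.85 and -2.73 with MSC-EVs. The genes other than *H2-DMa* kept their call in all 4 comparisons under each of the 27 alternatives run. *H2-DMa* lay near the median of all genes.

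**Figure D2:**
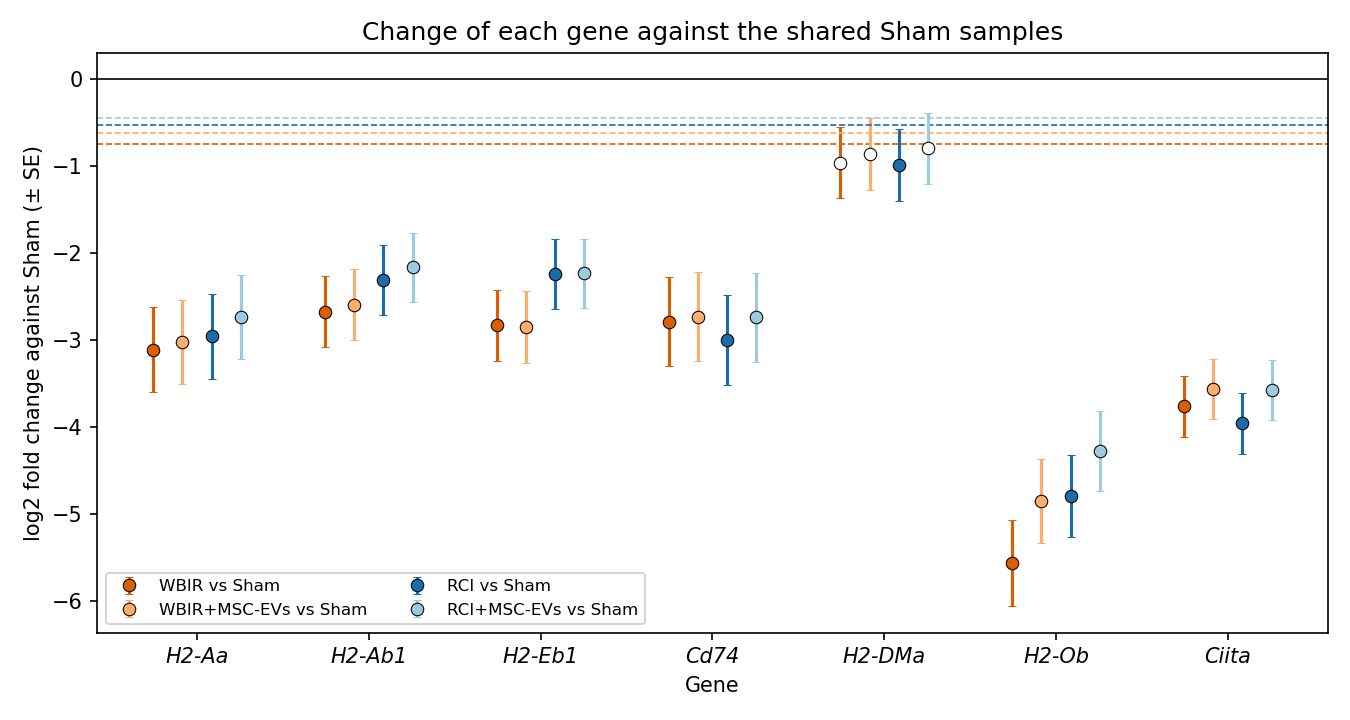
Log2 fold change (± SE) of the 7 tested class II genes against Sham in the 4 irradiated groups, with filled points for genes called lower and open points for genes not called. Dashed lines give the median of all 426 genes in each comparison, from -0.74 to -0.45, and *H2-DMa* is the gene nearest to them, with open points in 3 of the 4 groups.

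To compare the genes with each other without any scaling, the ratio of each to *H2-Ab1* was taken within each sample. *H2-Aa*, *H2-Eb1* and *Cd74* had ratios to *H2-Ab1* whose ranges overlapped between Sham and the irradiated samples. The mean differences were -0.41, -0.07 and -0.20 log2 units. For *H2-Aa* and *Cd74* the overlap rested on Sham replicate 2, a library that stood apart. *H2-Aa* over *H2-Ab1* was 1.05, 0.32 and 1.26 in Sham and 0.31 to 0.61 in the irradiated samples. *Cd74* over *H2-Ab1* was 2.19, 1.04 and 1.87 in Sham and 1.15 to 1.85 in the irradiated samples. *H2-DMa* over *H2-Ab1* was -3.16 to -2.66 in Sham and -2.10 to -1.03 in the 12 irradiated samples, which is 1.51 higher on average. *H2-Ob* over *H2-Ab1* was -3.22 to -2.65 in Sham and -6.18 to -3.77 in the irradiated samples, lower by 2.46 on average (-2.46 log2 units). *Ciita* over *H2-Ab1* was -3.46 to -3.18 in Sham and -5.11 to -3.57 in the irradiated samples, a difference of -1.28. For these 3 genes no irradiated sample fell within the Sham range. The share of all genes whose ratio to *H2-Ab1* separates in this way was not computed. *H2-Ab1* itself fell by 2.67 in WBIR, where the median of all genes was at -0.74, so a gene near that median rises against *H2-Ab1*. The rise of *H2-DMa*, which lay near that median, is therefore not particular to it. The sizes for *H2-Ob* and *Ciita* rest on the low irradiated counts given above.

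The ratio of *H2-Ob* to *H2-DMa*, the inhibitor subunit to the editor subunit, differed most. It was -0.08 to 0.26 in Sham and -4.81 to -2.60 in the irradiated samples, a mean difference of -3.97 log2 units. The subunits of H2-DM itself also separated. The panel holds the beta subunit *H2-DMb2*, and *H2-DMb2* over *H2-DMa* was 0.98 to 1.44 in Sham and -2.27 to -0.74 in the irradiated samples, a ratio added after its values were seen. *H2-DMb2* was at -4.23 in WBIR and -4.05 in RCI, nearer to *H2-Ob* (-5.56 and -4.79) than *H2-DMa* was (-0.96 and -0.98). The size of the inhibitor to editor difference therefore depends on the H2-DM subunit used, and *H2-Ob* over *H2-DMb2* was not taken. *H2-DMb2* has a close relative, H2-DMb1, and cross-hybridisation was not assessed. *Cd74* over *H2-Ab1* was 1.71 to 1.85 in WBIR and 1.56 to 1.85 in WBIR+MSC-EVs, but 1.15 to 1.27 in RCI, while RCI+MSC-EVs had 1.21 to 1.39. The burned and unburned irradiated samples did not overlap for this ratio, which was picked out after its values were seen and was not tested. How many other ratios separate burned from unburned samples was not examined. Sham replicates 1 and 3, at 2.19 and 1.87, lay above all irradiated samples, and Sham replicate 2, at 1.04, lay below all of them.

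**Figure D3:**
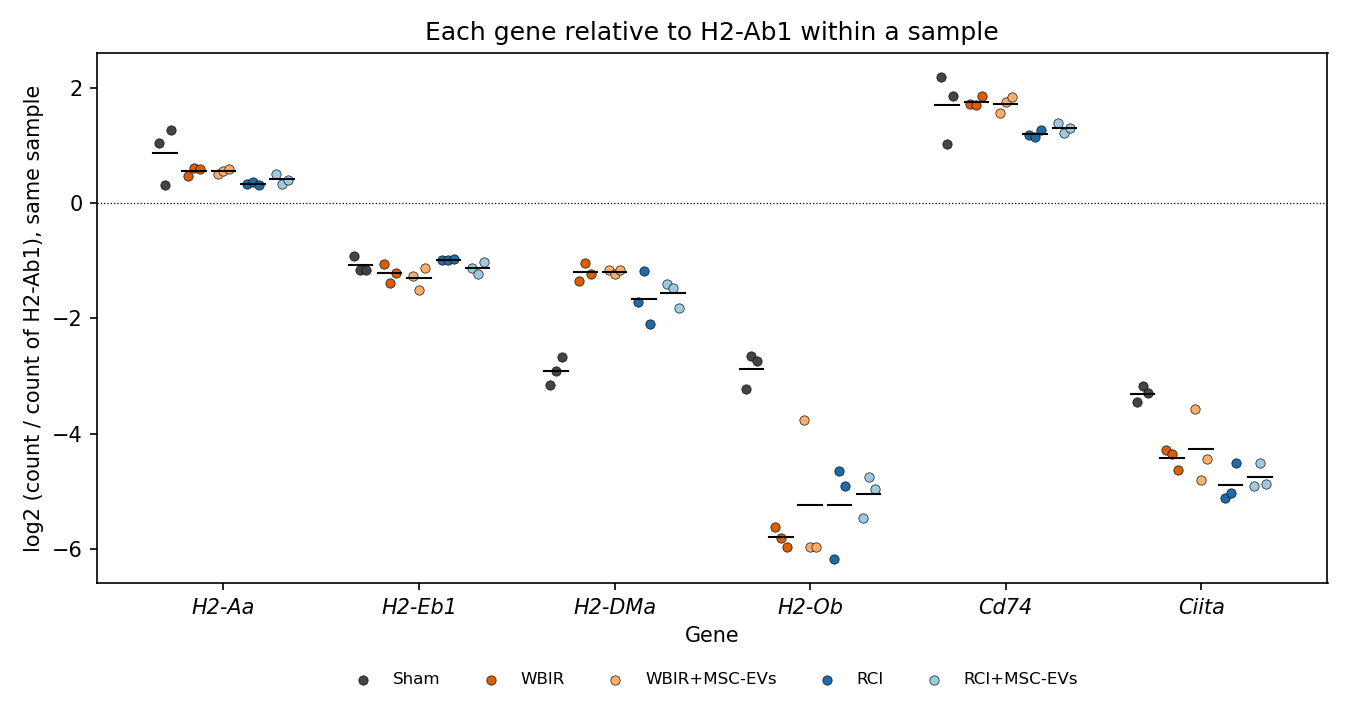
Log2 ratio of the count of 6 class II genes to that of *H2-Ab1* in the same sample, by group, with bars at the group means. *H2-DMa* moves up, and *H2-Ob* and *Ciita* move down, from Sham to the irradiated samples without overlap. The ranges of *H2-Aa*, *H2-Eb1* and *Cd74* overlap, for *H2-Aa* and *Cd74* only through Sham replicate 2.

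MSC-EVs were compared with no MSC-EVs within each injury to ask whether the treatment changed the class II genes. In irradiated mice without a burn 0 of the 7 genes were called by edgeR, and 0% of all 426 genes were. In RCI mice both counts were also 0 (0%). At an unadjusted p under 0.05, 0 of the 7 passed in either comparison, while 11 and 14 of all genes did. Treated and untreated samples overlapped for all 7 genes. DESeq2 and limma called none of the 7 in either injury. The largest difference was in *H2-Ob*, at 0.72 ± 0.47 in WBIR, with a 95% interval of -0.28 to 1.72, and 0.52 ± 0.43 in RCI, with an interval of -0.40 to 1.44. Averaged over both injuries *H2-Ob* was 0.62 ± 0.32 higher on the log2 scale (edgeR p 0.0718, adjusted p 0.984), and this difference was 0.28 without WBIR+MSC-EVs replicate 1 and 0.15 with all 3 libraries that stood apart left out. Averaged over both injuries 0% of all genes were called, and 0% were called for the difference between the injuries. *H2-Ab1* was at 0.08 (-0.74 to 0.91) in WBIR and 0.15 (-0.68 to 0.97) in RCI, *Cd74* at 0.06 (-0.97 to 1.09) and 0.26 (-0.77 to 1.29), and *Ciita* at 0.20 (-0.51 to 0.91) and 0.39 (-0.31 to 1.09). Over both injuries the 95% intervals of the 7 genes reached down to -0.97 and up to 1.72 log2 units. When the MSC-EV effect in RCI was tested against that in WBIR, 0 of the 7 had an unadjusted p under 0.05 (smallest edgeR p 0.69).

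The added burn was examined by comparing RCI with WBIR. The methods do not list anaesthesia, morphine or Ringer's solution for WBIR mice, so the burn cannot be told apart from these. Of the 7 class II genes 0 were called, against 0.704% of all genes, and 0 of the 7 had an unadjusted p under 0.05, against 71 of the 426 genes. The largest differences were *H2-Ob*, at 0.77 ± 0.45 (edgeR adjusted p 0.393, 95% interval -0.20 to 1.74), and *H2-Eb1*, at 0.59 ± 0.39 (edgeR adjusted p 0.433, interval -0.24 to 1.42). *Cd74* was at -0.21 (-1.24 to 0.82) and *Ciita* at -0.20 (-0.90 to 0.51). All 7 genes overlapped between the groups. RCI+MSC-EVs was not tested against the groups without a burn, from which it differs in both injury and treatment or in injury alone. Its samples lay above all WBIR samples for *H2-Aa*, *H2-Ab1*, *H2-Eb1* and *H2-Ob*, and above all WBIR+MSC-EVs samples for *H2-Ab1*, at 1953 to 2170 against 1232 to 1899, and *H2-Eb1*, at 911 to 966 against 514 to 670 scaled counts. Of all 426 genes, 37.8% lay above WBIR and 23.9% above WBIR+MSC-EVs in this way.

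**Figure D4:**
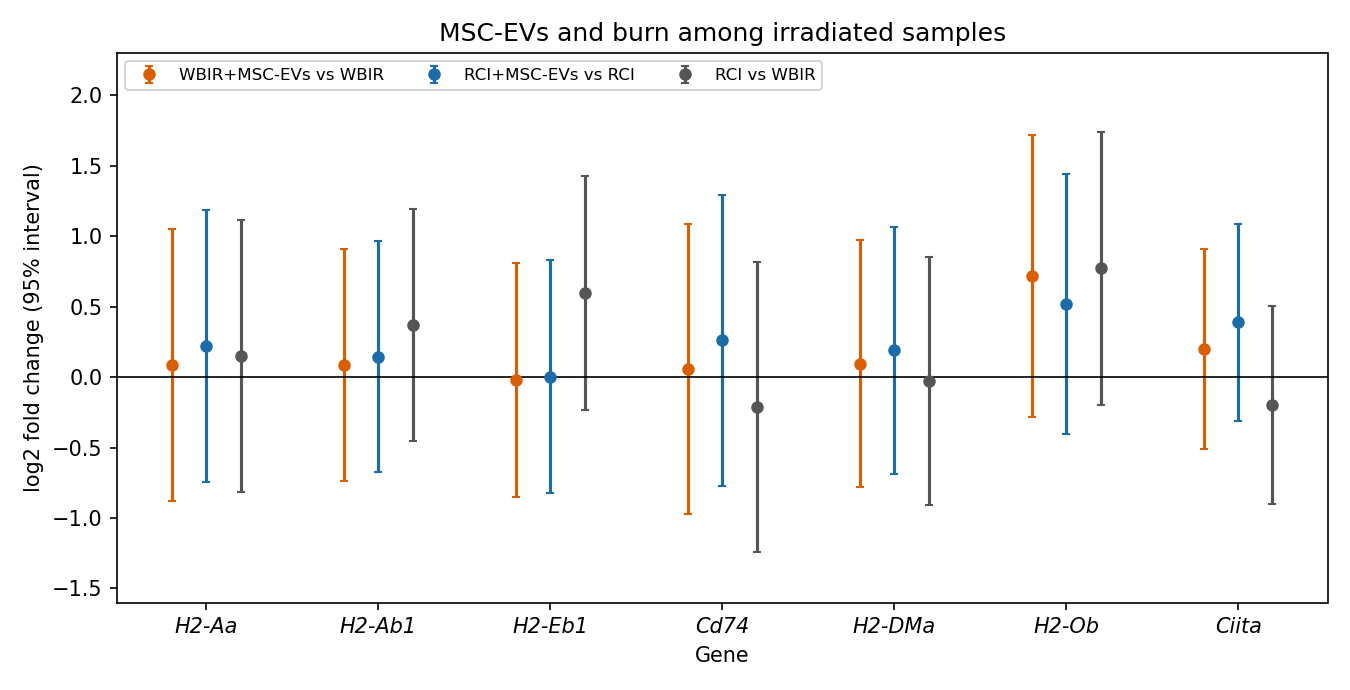
Log2 fold change with its 95% interval for the 7 tested class II genes for MSC-EVs in each injury and for RCI against WBIR. Every interval crosses 0, and the highest points are those of *H2-Ob*, at 0.72, 0.52 and 0.77.

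Genes that act beside class II did not all move with it. Of a list of 12 loading factors and cofactors the panel measured 3. *H2-DMb2* fell by 4.23 on the log2 scale in WBIR (SE 0.37, edgeR adjusted p 5.1e-07) and by 4.05 in RCI. *Ctss*, the protease cathepsin S that trims the invariant chain, rose instead, by 1.53 ± 0.45 in WBIR and 1.93 ± 0.45 in RCI (edgeR adjusted p 0.007 and 0.0016). *Ctss* had 1407 to 3086 scaled counts in Sham and 4189 to 12380 in the irradiated samples. *Cd4*, the T cell coreceptor for class II, fell by 1.19 in WBIR and by 1.09 in RCI. Along the route from interferon-gamma to *Ciita*, 8 genes were tested, and 2 were lower in WBIR, the kinases *Jak2* and *Jak1*, with log2 fold changes of -1.78 and -1.38. In RCI 2 of the 8 were lower, again *Jak1* and *Jak2*, and *Socs1*, an inhibitor of this route, was higher at 0.64. Of all 426 genes, 46.9% were called lower in WBIR and 43.0% in RCI.

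Class I presentation serves CD8 T cells. Of its 7 tested genes, 3 were lower and 1 higher in WBIR, with a median log2 fold change of -0.45, and 3 were lower and 0 higher in RCI. *H2-Q10*, a class I gene, was at -2.90 in WBIR, the peptide transporter subunit *Tap1* at -1.85 and the class I heavy chain *H2-K1* at -1.73. *B2m*, the light chain of class I molecules, was named after its values were seen and was not called, at 0.13 ± 0.27 in WBIR and 0.23 ± 0.27 in RCI. Costimulatory and inhibitory genes of presenting cells moved in both directions. In WBIR 5 of 7 were lower, among them *Icosl*, the ligand of ICOS, at -4.21, *Cd40* at -3.31 and *Pdcd1lg2*, the inhibitory ligand PD-L2, at -2.51. The other 2, *Cd80* and *Cd86*, ligands of CD28, were higher at 1.42 and 1.94. In RCI 4 were lower and the same 2 were higher. Of all genes, 46.9% were called lower and 21.6% higher in WBIR, and 43.0% lower and 26.5% higher in RCI. The class I counts of lower genes are near these shares.

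Markers of the cells that carry class II, and of T cells, moved with these genes or against them. All 10 measured B cell markers were lower in WBIR and in RCI, with a median log2 fold change of -4.38 in both, and *Cd22* was at -5.18 and *Pax5* at -4.79 in WBIR. Their summed level was 18140 to 21418 scaled counts in Sham and 797 to 1721 in the irradiated samples, and none was at 0. Of the class II genes, *H2-Ob* was at -5.56 in WBIR, below the 10 markers, and the other 6 were above the median of the B cell list. Of 11 macrophage markers, 8 were higher in WBIR and 8 in RCI and 0 were lower. They were led in WBIR by *Fcgr1* (3.90), *Emr1* (3.67), the older name of the F4/80 gene, and *Marco* (3.50), and summed to 4109 to 8661 in Sham and 25784 to 54324 in the irradiated samples. Of 7 tested dendritic cell markers, 2 were lower and 2 higher in WBIR, with the receptor *Ccr7* at -2.92, *Irf4* at -1.87 and *Bst2* at 1.94, and the sum of the 8 measured was 3755 to 3940 in Sham and 2599 to 3967 in the irradiated samples. *Itgax*, which encodes CD11c, was at 0.62 ± 0.39 in WBIR and was not called. All 15 T cell markers were lower in WBIR and in RCI, led in WBIR by *Il7r* (-4.51), *Cd8b1* (-4.005) and *Cd8a* (-3.86). These counts stand beside 46.9% of all genes called lower and 21.6% called higher in WBIR, and 43.0% and 26.5% in RCI. The part of cell numbers in the class II result was not tested.

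**Figure D5:**
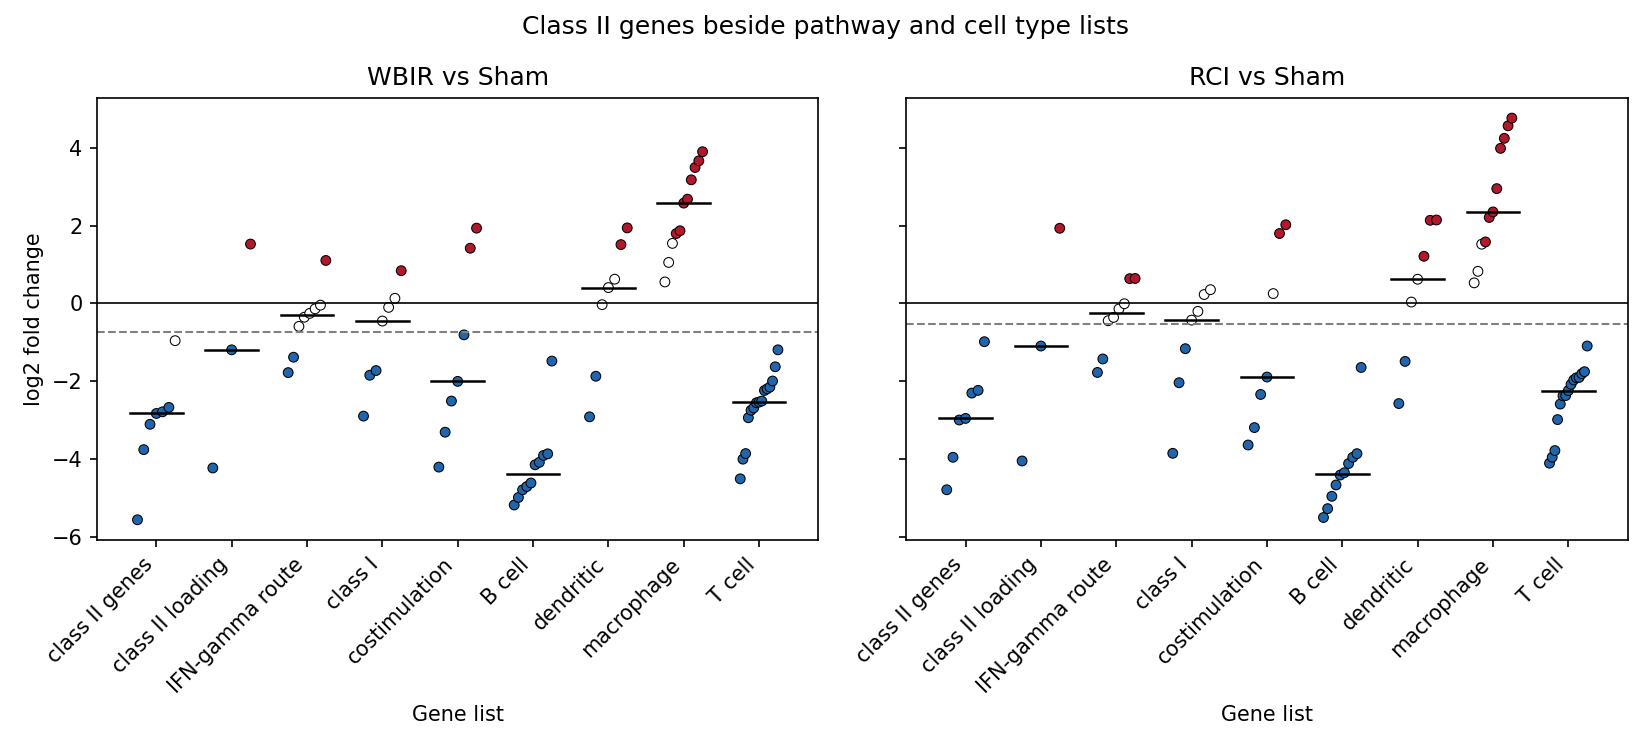
Log2 fold change of each tested gene of the class II group and of 8 other gene lists in WBIR and in RCI against Sham, with blue for called lower, red for called higher and white for not called. Solid bars give list medians and the dashed line the median of all 426 genes. The medians of the class II genes (-2.83 and -2.96) lie between that of the B cell list (-4.38) and the line, and the macrophage list lies above 0. *H2-Ob* lies below the B cell median, at -5.56 in WBIR and -4.79 in RCI.

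Likeness was described by the root mean square difference of 2 genes' log2 levels over the 15 samples, each centred on its own mean, so that 0 is the same pattern. This measure is dominated by the contrast of Sham with the irradiated samples, which share it. Among the class II genes *H2-Ab1* and *H2-Eb1* were closest, at 0.16, followed by *H2-Aa* and *Cd74*, at 0.20, and *H2-Aa* and *H2-Ab1*, at 0.26. *H2-Ob* and *H2-DMa* were farthest apart, at 1.72. Outside the group, the gene closest to *H2-Ab1* was *Ltb* (0.36), which encodes lymphotoxin beta, followed by *Itga4* (0.42) and *Traf5* (0.43). *Ltb* was also closest to *H2-Eb1* (0.32), ahead of *Ccr7* (0.45) and *Cd3d* (0.46). *H2-Aa* was closest to *H2-DMb2* (0.51), the B cell gene *Ms4a1* (0.51) and *Ltb* (0.53), and *Cd74* to *Cd83* (0.57), *Tnfrsf13b* (0.58) and *Ms4a1* (0.58).

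The regulators and editors had other neighbours. *H2-Ob* was closest to *Btla* (0.49), an inhibitory receptor of lymphocytes, and to the B cell genes *Cd79a* (0.51) and *Pax5* (0.56). The genes near *Ciita* included *Icosl* (0.37) and the chemokine receptor *Cxcr5* (0.39). *H2-DMa* was closest to *Il16* (0.31), *Tlr9* (0.34) and *Tgfbr2* (0.36), none of which was among the neighbours of the other 6 genes.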

How the data were processed

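The authors isolated RNA from spleen cells, hybridised it to the nCounter Mouse Immunology Panel, counted barcodes and normalised them in nSolver. The deposited values are raw counts per gene, before normalisation, as read from the values. No genome build applies to them. Background was left in, since no control probes were analysed here. Counts were scaled to the geometric mean of the 14 reference genes, whose own log2 changes in WBIR, relative to their mean, ran from -1.70 to 2.83. Genes averaging 20 counts or more were tested with edgeR 4.0.16 (R 4.3.3, quasi-likelihood test with robust estimation, two-sided), with 1 coefficient per group over all 15 samples, 10 residual degrees of freedom, a common dispersion of 0.11 and Benjamini-Hochberg adjustment over 426 genes. The 3 samples per group limit the precision, and the irradiated values of *H2-Ob* rest on 21 to 64 raw counts and those of *Ciita* on 32 to 110. The scripts were tested on simulated data. Alternatives were 4 scalings, limma 3.58.1 with pseudocounts of 1 and 10, DESeq2 1.42.0, filters of 50 counts and none, the compared groups alone, a replicate block, each sample left out, and, added after seeing the data, 3 libraries left out together. Named genes were all members, the 3 with the largest absolute change in WBIR of each list, all loading factors, and the 3 nearest to each member, and some of these are not reported here. *Cd80*, *Cd86*, *Socs1* and *Itgax* were named after their values were seen. Members and lists were chosen with earlier results of these data known. The natural killer cell and neutrophil lists are given in the closing section.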

Additional observations from a re-analysis of the deposited data

How the results depend on the processing

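Each of the 7 tested class II genes was refitted under 27 alternatives in 9 comparisons. No called value changed direction, and *H2-Aa*, *H2-Ab1*, *H2-Eb1*, *Cd74*, *H2-Ob* and *Ciita* were called lower than Sham under all of them. Their log2 fold changes in WBIR ranged from -2.88 to -2.12 for *H2-Ab1* and from -5.69 to -4.99 for *H2-Ob*. *H2-DMa* was the exception. Its call in RCI was lost with TMM (edgeR adjusted p 0.143), median of ratios (0.157) and total count scaling (0.093), without a filter (0.0509) and with the compared groups alone (0.154), and over all alternatives its adjusted p ranged from 0.0082 to 0.157. In WBIR it was called under 6 of 27, among them DESeq2 (adjusted p 0.0348). Of values not called, 93 changed sign under an alternative, so their signs are not read. The replicate numbers were not taken to pair the samples. Same-numbered samples deviated from their groups with a median correlation of 0.01 over 30 pairs, against 0.02 for the 60 other pairs. The 30 values ran from -0.49 to 0.68 and 11 were above 0.1, so whether the numbers mark pairs is not known. With the replicate block, 6, 6, 7 and 6 of the 7 genes were called against Sham and 0 in the comparisons among irradiated samples. Across all genes, the 3 calls in RCI against WBIR became 1 with TMM, 28 with DESeq2 and 0 with the compared groups alone, and 1 to 15 with 1 sample left out. The cause was not tested.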

Other observations

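The natural killer cell and neutrophil lists, which are no class II genes, are given as values. Of 6 tested natural killer cell markers, 1 was lower in WBIR and 3 in RCI, led in WBIR by *Klrd1* at -2.53, with *Eomes* at -1.12 and *Gzma* at 0.65 not called. Of 5 tested neutrophil markers, 4 were lower in WBIR and 4 in RCI, led in WBIR by *Camp* at -7.85, *S100a9* at -2.86 and *S100a8* at -2.72. Over all 426 genes, 46.9% were called lower in WBIR and 43.0% in RCI. The neutrophil sum was 7845 to 44392 scaled counts in Sham and 1452 to 10085 in the irradiated samples.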
